A study of Mus musculus with 15 samples.

Results

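The members described here are 44 genes of lysosomal enzymes, lysosomal membrane proteins and autophagy, chosen by name, out of 22524 genes counted in each library. All 44 were matched to 1 row each by their GRCm38 symbol, and all 44 passed the filter on low counts. They were measured by RNA sequencing in the brain cortex of 15 female C57BL/6 mice at an age of 18 months. Of these, 7 carried Rps9 D95N on 1 allele with Rps9 WT on the other, an amino acid change in a ribosomal protein (D95N below), and 8 were littermates with Rps9 WT on both alleles (WT). Libraries are named by genotype and animal number. The tissue field of the labels says skeletal muscle where the series design says cortex, and the counts sided with brain over muscle. That the brain region was cortex is taken from the series design. Snap25, a neuronal synaptic protein, stood at 2616 to 3076 CPM in every library, while the 10 skeletal muscle genes together reached 13.8 CPM in the highest D95N library and 37.3 CPM in the highest WT library. CPM are read counts scaled to library size with TMM factors (with plain library totals for Snap25), and total counts ran from 23349381 to 34587082 per library. Each library is 1 animal, and no label gives a batch or a litter. Over all genes D95N 42 did not lie with its own genotype. Its counts differed by a mean chi-square per gene of 13.2 to 47.0 from the other D95N libraries and of 8.82 to 12.8 from the WT libraries. D95N 41 also lay nearer to WT by the median, at 21.1 from the other D95N libraries and 15.99 from the WT libraries, and the other 5 D95N libraries lay nearer to D95N. Gene counts do not show the Rps9 allele, so the label of D95N 42 was not checked. The count of called members without that library is given beside the main count.

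Lysosomes are acid compartments in which hydrolases take proteins, glycans, lipids and nucleic acids apart. The hydrolases are mostly sorted there by mannose 6-phosphate receptors, and the membrane around them carries heavily glycosylated proteins, transporters and ion channels. Macroautophagy feeds lysosomes with cytoplasm: the ULK1 kinase starts it, the Beclin 1 lipid kinase complex builds the membrane, and ATG7 and ATG5 act in joining ubiquitin-like ATG8 proteins (the LC3 and GABARAP proteins) to lipid on it. Receptors such as p62 then tie cargo to those ATG8 proteins. TFEB and TFE3 are transcription factors that bind E-box motifs with a CACGTG core in the promoters of many such genes. Inherited loss of many of these enzymes causes lysosomal storage disease, often with loss of neurons, and microglia are rich in several of the cathepsins.

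The promoters are shown because a CACGTG core in the promoter is the sequence feature by which many genes of this kind are known, and because it was not used to choose the members. The sequences are from RefSeq on GRCm38.p6, with 250 bases before and 50 after each transcript start, and 37 of the 44 members matched by symbol. Of these 37 genes 13 (35.1%) held CACGTG in at least 1 listed promoter, against 2187 of all 27025 genes (8.09%). The longer TCACGTG, searched on both strands and containing the core, was found in 10 of 37 members (27.0%), against 1160 of 27025 genes (4.29%). CACGTG reads alike on both strands. The member promoters were also richer in G and C, with a median of 56.5% over 42 promoters against 52.7% over all 32851. These are counts of letters, with no test, and the 27025 genes are all those with a listed promoter, expressed here or not. The 6 promoters printed here are those of the 4 members with the core that passed the expression test, Gla and Ctsa with 2 cores each and Gaa and Glb1 with 1 each, and of 2 that did not pass, Lamp1, which held the most with 4, and Ctsd, the main aspartic protease, with 2. RefSeq lists 2 promoters for Ctsa: the one printed is that of the start further into the gene, and the one at the outer start holds no core. All 6 run 5′ to 3′ along the gene's strand, in the windows chrX:134600956-134601255 (- strand) for Gla, chr2:164833523-164833822 (+ strand) for Ctsa, chr11:119267713-119268012 (+ strand) for Gaa, chr9:114400828-114401127 (+ strand) for Glb1, chr8:13158911-13159210 (+ strand) for Lamp1 and chr7:142387778-142388077 (- strand) for Ctsd. Capitals mark CACGTG.
Gla: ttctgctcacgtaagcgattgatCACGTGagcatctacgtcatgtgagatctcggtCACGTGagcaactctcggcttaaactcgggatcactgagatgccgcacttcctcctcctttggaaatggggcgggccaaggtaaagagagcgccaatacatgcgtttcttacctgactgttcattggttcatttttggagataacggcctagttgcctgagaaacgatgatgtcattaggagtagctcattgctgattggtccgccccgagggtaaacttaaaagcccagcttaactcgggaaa
Ctsa: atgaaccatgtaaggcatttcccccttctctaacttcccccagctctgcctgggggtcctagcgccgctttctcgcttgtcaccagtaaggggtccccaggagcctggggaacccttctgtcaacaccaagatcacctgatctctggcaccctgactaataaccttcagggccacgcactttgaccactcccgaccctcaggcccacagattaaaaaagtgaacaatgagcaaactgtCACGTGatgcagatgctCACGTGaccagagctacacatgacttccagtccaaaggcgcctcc
Gaa: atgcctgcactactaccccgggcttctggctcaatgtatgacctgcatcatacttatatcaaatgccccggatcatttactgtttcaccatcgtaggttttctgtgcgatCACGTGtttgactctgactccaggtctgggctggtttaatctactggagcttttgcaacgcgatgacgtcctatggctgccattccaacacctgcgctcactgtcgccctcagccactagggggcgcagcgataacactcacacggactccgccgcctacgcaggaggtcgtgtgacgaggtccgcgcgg
Glb1: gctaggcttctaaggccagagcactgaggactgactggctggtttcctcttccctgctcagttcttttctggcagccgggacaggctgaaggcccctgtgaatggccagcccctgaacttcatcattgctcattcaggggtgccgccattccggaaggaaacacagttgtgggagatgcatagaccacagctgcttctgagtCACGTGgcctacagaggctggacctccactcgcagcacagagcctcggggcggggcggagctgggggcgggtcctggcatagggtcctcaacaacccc
Lamp1: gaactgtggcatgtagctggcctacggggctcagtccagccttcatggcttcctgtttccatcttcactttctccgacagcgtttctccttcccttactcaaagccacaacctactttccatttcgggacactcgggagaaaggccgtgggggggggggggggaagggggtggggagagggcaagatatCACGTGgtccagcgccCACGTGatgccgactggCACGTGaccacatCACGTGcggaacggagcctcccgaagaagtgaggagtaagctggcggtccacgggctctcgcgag
Ctsd: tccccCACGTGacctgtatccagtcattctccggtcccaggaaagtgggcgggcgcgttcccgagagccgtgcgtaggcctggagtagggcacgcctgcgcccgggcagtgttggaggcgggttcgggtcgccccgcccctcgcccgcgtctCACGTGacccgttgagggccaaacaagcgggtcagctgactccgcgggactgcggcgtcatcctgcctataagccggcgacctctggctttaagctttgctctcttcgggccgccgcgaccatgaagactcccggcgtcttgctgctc
In Gla the cores begin 227 and 194 bases before the transcript start, in Ctsa 12 bases before it and at base 6 after it, in Gaa 140 and in Glb1 48 bases before it. In Lamp1 all 4 begin within the last 61 bases before the start, and in Ctsd they begin 245 and 98 bases before it. The core was present in 3 of the 6 matched members that were higher in D95N, in 1 of the 3 that were lower and in 9 of the 28 that did not pass, so these letters were found on every side of the result.

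In D95N cortex 8 of the 44 members were higher and 4 were lower (edgeR's quasi-likelihood test, adjusted p under 0.05 over all genes tested). Without D95N 42 they were 11 and 5, the same 12 among them. Over all genes that fit gave 2694 higher and 2282 lower of 15052 tested, against 2272 and 1744 of 14989 with every library. The 12 are 27.3% of the members, next to 26.8% of all 14989 tested genes, and by direction 18.2% were higher and 9.09% lower, next to 15.2% and 11.6% of all genes. These shares lie near the background, so the members as a list did not stand apart in how many passed. The members' median log2 fold change was 0.01, next to -0.01 over all genes. The median size of the change, leaving out its sign, was 0.08 in the members and 0.12 over all genes. None of the 12 reached a 2-fold change, and among them the median size was 0.17, next to 0.25 among all genes that passed. The groups did not overlap in 3 members (6.82%), next to 3.28% of all tested genes. All 3 were higher in D95N, where 1.81% of all genes were higher without overlap, and 1.47% were lower.

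**Figure D1:**
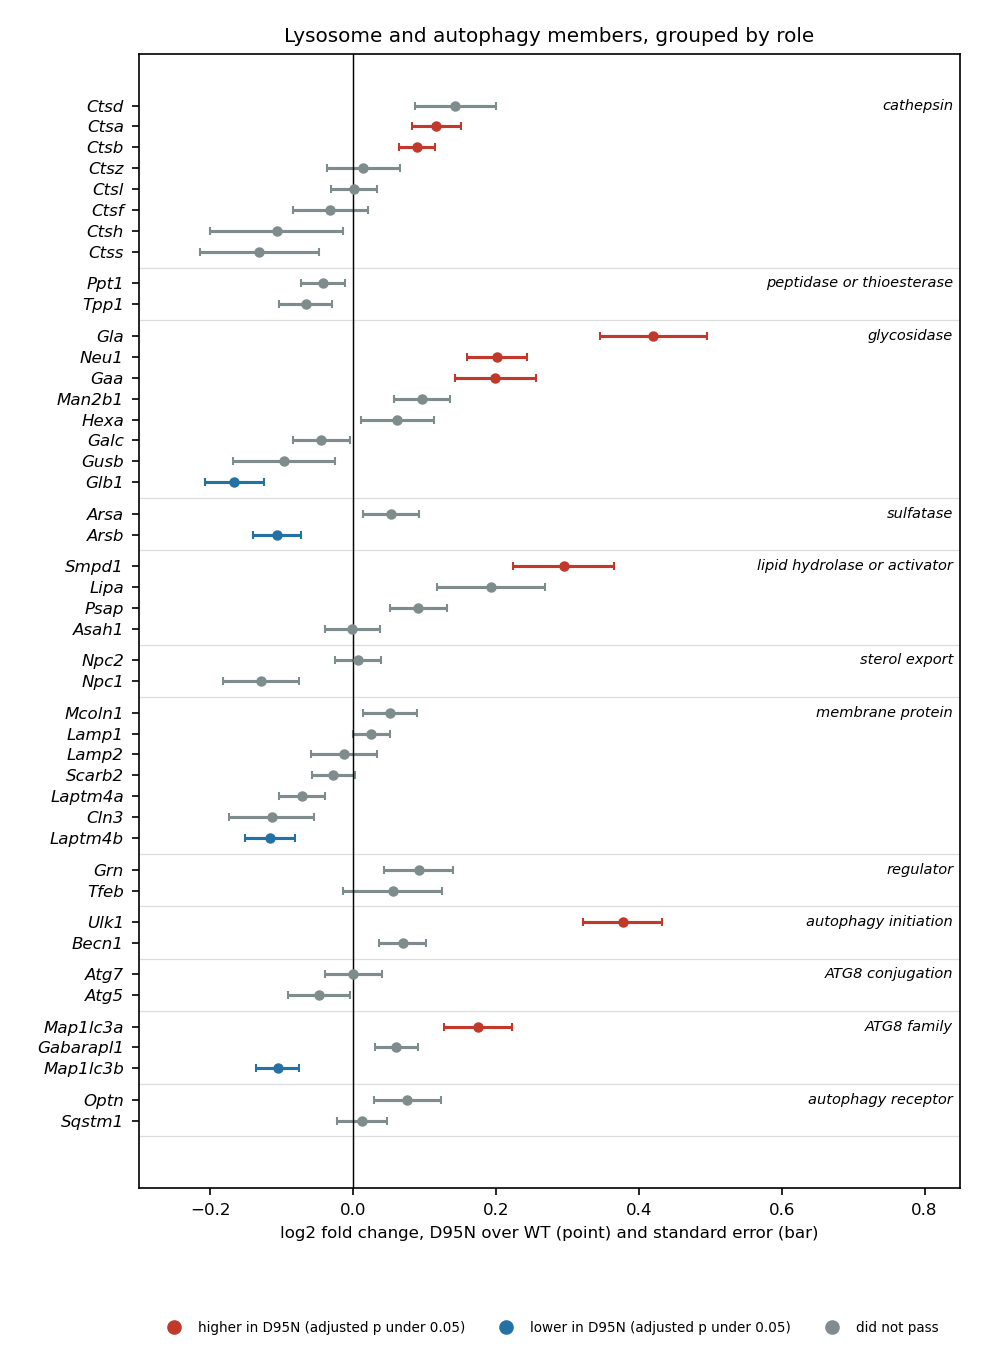
Log2 fold change of each of the 44 members, D95N over WT (points), with its standard error (bars), in blocks by role. Gla and Ulk1 lie farthest to the right at 0.42 and 0.38, Glb1 farthest to the left at -0.17, and each block with several genes that passed holds some that did not.

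**Figure D2:**
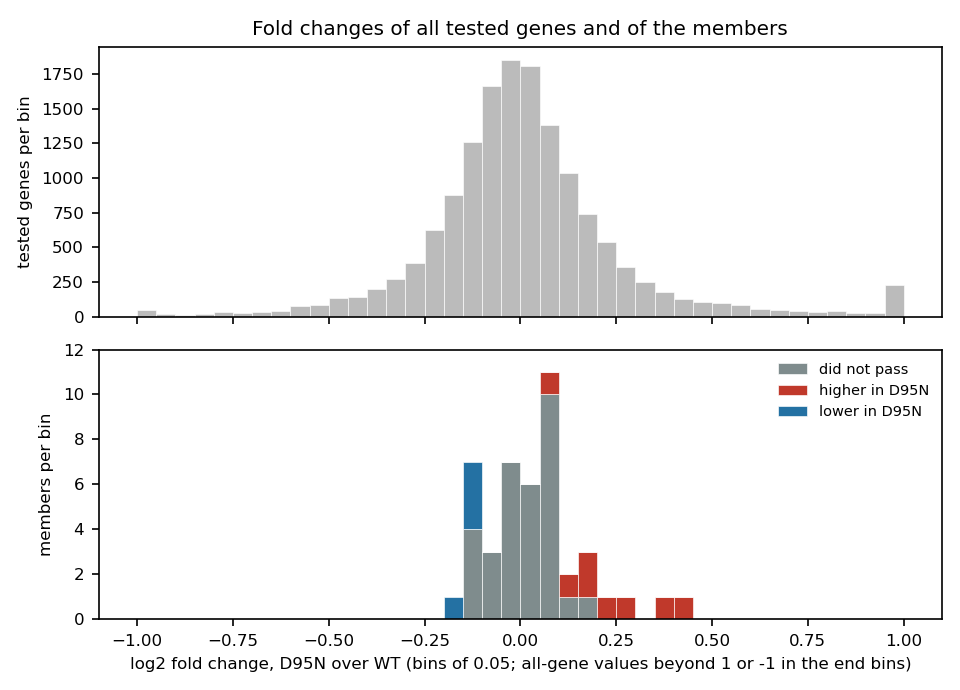
Log2 fold changes, D95N over WT, in bins of 0.05, for all 14989 tested genes (top, number of genes) and for the 44 members (bottom, number of members, coloured by call). The members lie between -0.17 and 0.42, and the all-gene distribution extends beyond both ends of that range.

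The 8 tested genes of a 9-gene blood list were all lower in D95N (edgeR and DESeq2; limma-voom called 4), with summed levels of 37.4 to 149 CPM in D95N and 82.2 to 313 CPM in WT. Of 11 meningeal genes 5 were lower and none was higher (edgeR, with 0 higher at an unadjusted p under 0.05, by DESeq2 or by limma-voom), with summed levels of 89.7 to 183 CPM in D95N and 160.3 to 219 CPM in WT. With scores for both lists in the fit 0 of the 44 members passed (edgeR; 10 at an unadjusted p under 0.05), and 10 of all genes did. The changes themselves were smaller by over 1.5 times in 5 of the 12 called members, at log2 fold changes of 0.23 for Gla, 0.24 for Ulk1, 0.19 for Smpd1, 0.01 for Gaa and -0.06 for Laptm4b, against 0.42, 0.38, 0.30, 0.20 and -0.12 without the scores. All 12 kept their sign, and the members' median SE was 0.07 with the scores, against 0.04 without them. Of 10 neuronal markers 5 were higher and 2 lower, and of 10 astrocyte markers 1 was higher and 5 lower, with summed neuronal levels of 8464 to 10364 CPM in D95N and 8581 to 9165 CPM in WT and summed astrocyte levels of 4890.3 to 5893 CPM in D95N and 5264 to 5732 CPM in WT. Of 8 endothelial markers 3 were lower and 0 higher, and of 8 striatal markers 4 were lower and 0 higher (edgeR). At an unadjusted p under 0.05, 1 striatal marker was higher. No choroid plexus marker passed by edgeR. Summed endothelial levels were 303 to 382 CPM in D95N and 320 to 494 CPM in WT. Striatal sums were 659 to 1427 CPM in D95N and 787 to 1214 CPM in WT. Choroid plexus sums were 202 to 1154 CPM in D95N and 282 to 1080 CPM in WT. Of 10 oligodendrocyte markers 1 was lower and 0 higher by edgeR, DESeq2 and limma-voom. Oligodendrocyte sums were 5997 to 7743 CPM in D95N and 6549 to 7966 CPM in WT. The part of neurons, astrocytes, endothelium, striatum, choroid plexus and oligodendrocytes in the results was not tested. The part of blood and meninges in the results was not tested beyond that fit. In bulk tissue, fewer cells of a type and less RNA per cell cannot be told apart.

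Among the glycosidases, which cut sugars from glycans and glycolipids, 3 of 8 rose and 1 fell. Over all tested genes 15.2% were higher and 11.6% lower, and the same shares stand beside the counts by role below. The roles hold 2 to 8 members each, and none was tested as a group. Gla (ENSMUSG00000031266, chromosome X, 134588149 to 134601125 of GRCm38) encodes alpha-galactosidase A, which removes the terminal galactose of globotriaosylceramide. It stood at 17.7 to 26.2 CPM (median 22.9) in D95N, against 14.9 to 17.5 CPM (median 16.8) in WT, so that the groups did not overlap. The rise was 1.34-fold, a log2 fold change of 0.42 with an SE of 0.07 (adjusted p = 0.000958 by edgeR), the largest among the members without marker scores. With blood and meningeal scores it was 0.23 (edgeR, adjusted p = 0.362), next to 0.24 for Ulk1. Gla is among the lesser transcripts of the set: per kilobase of exonic length it averaged 5.86 CPM over the 15 libraries.

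Neu1 (ENSMUSG00000007038, chromosome 17, 34931253 to 34935953), the sialidase that removes terminal sialic acid, Glb1 (ENSMUSG00000045594, chromosome 9, 114401076 to 114474898), the beta-galactosidase that cuts ganglioside GM1, and Ctsa (ENSMUSG00000017760, chromosome 2, 164832873 to 164841032), protective protein cathepsin A, form 1 enzyme complex in the lysosome, in which Ctsa protects the other two. Their transcripts did not move the same way. Neu1 stood at 52.6 to 62.0 CPM (median 57.6) in D95N, against 45.6 to 54.8 CPM (median 49.4) in WT. It rose 1.15-fold, at a log2 fold change of 0.20 with an SE of 0.04 (adjusted p = 0.00262 by edgeR), and 5 of 7 D95N libraries lay above every WT library. Ctsa stood at 99.0 to 117 CPM (median 106) in D95N, against 94.96 to 104 CPM (median 96.0) in WT. It rose 1.08-fold, at a log2 fold change of 0.12 with an SE of 0.03 (adjusted p = 0.0188 by edgeR), again with 5 of 7 D95N libraries above every WT library. Its call was lost when libraries were scaled by their totals (log2 fold change 0.08; edgeR, adjusted p = 0.0754) and with 1 surrogate variable in the fit (edgeR, adjusted p = 0.0683). Glb1 stood at 21.9 to 25.2 CPM (median 23.6) in D95N, against 24.6 to 28.5 CPM (median 26.3) in WT. It fell, to 0.891-fold, at a log2 fold change of -0.17 with an SE of 0.04 (adjusted p = 0.0077 by edgeR), and 6 of 7 D95N libraries lay below every WT library. Ctsa shares exonic bases with Pltp and Neurl2, and Glb1 with Tmppe. Of the called members described further on, Ctsb shares them with Fdft1 and Map1lc3b with Zcchc14. Several members that did not pass share bases too, among them Grn with Fam171a2, Npc1 with Rmc1 and Becn1 with Cntd1. Only neighbours counted in the libraries are named. No source used here gives the strand setting of the counting, and reads on shared bases could belong to either gene.

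Gaa (ENSMUSG00000025579, chromosome 11, 119267887 to 119285454), the acid alpha-glucosidase that breaks down glycogen, stood at 455 to 599.9 CPM (median 517) in D95N, against 423 to 518 CPM (median 455) in WT. It rose 1.15-fold, at a log2 fold change of 0.20 with an SE of 0.06 (adjusted p = 0.0158 by edgeR). The groups overlapped: 3 of 7 D95N libraries lay above every WT library, and WT 30, at 518 CPM, was the WT library that reached farthest into the D95N range. With a correction for GC content and length its log2 fold change was 0.11 (edgeR, adjusted p = 0.132), and with blood and meningeal scores it was 0.01 (edgeR, adjusted p = 0.982). The other glycosidases did not pass. Man2b1, an alpha-mannosidase, had a log2 fold change of 0.10 (edgeR, adjusted p = 0.0805), and without D95N 42 it passed at 0.12 (edgeR, adjusted p = 0.0194). Hexa, the alpha subunit of beta-hexosaminidase, stood at 0.06 (edgeR, adjusted p = 0.385), Galc, which cuts the myelin lipid galactosylceramide, at -0.04 (edgeR, adjusted p = 0.435), and Gusb, beta-glucuronidase, at -0.10 (edgeR, adjusted p = 0.329). Of the sulfatases, Arsb, which desulfates dermatan and chondroitin sulfate, was at 118 to 132 CPM (median 127) in D95N, against 128 to 144 CPM (median 137) in WT. It fell to 0.929-fold, at a log2 fold change of -0.11 with an SE of 0.03 (adjusted p = 0.0264 by edgeR), and 4 of 7 D95N libraries lay below every WT library. Leaving out any 1 of D95N 21, D95N 50, WT 19 and WT 43 ended the call, with log2 fold changes of -0.09, -0.09, -0.09 and -0.10 (edgeR, adjusted p = 0.0677, 0.0569, 0.0548 and 0.0521). Arsa, which desulfates the myelin lipid sulfatide, stood at 0.05 (edgeR, adjusted p = 0.332).

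**Figure D3:**
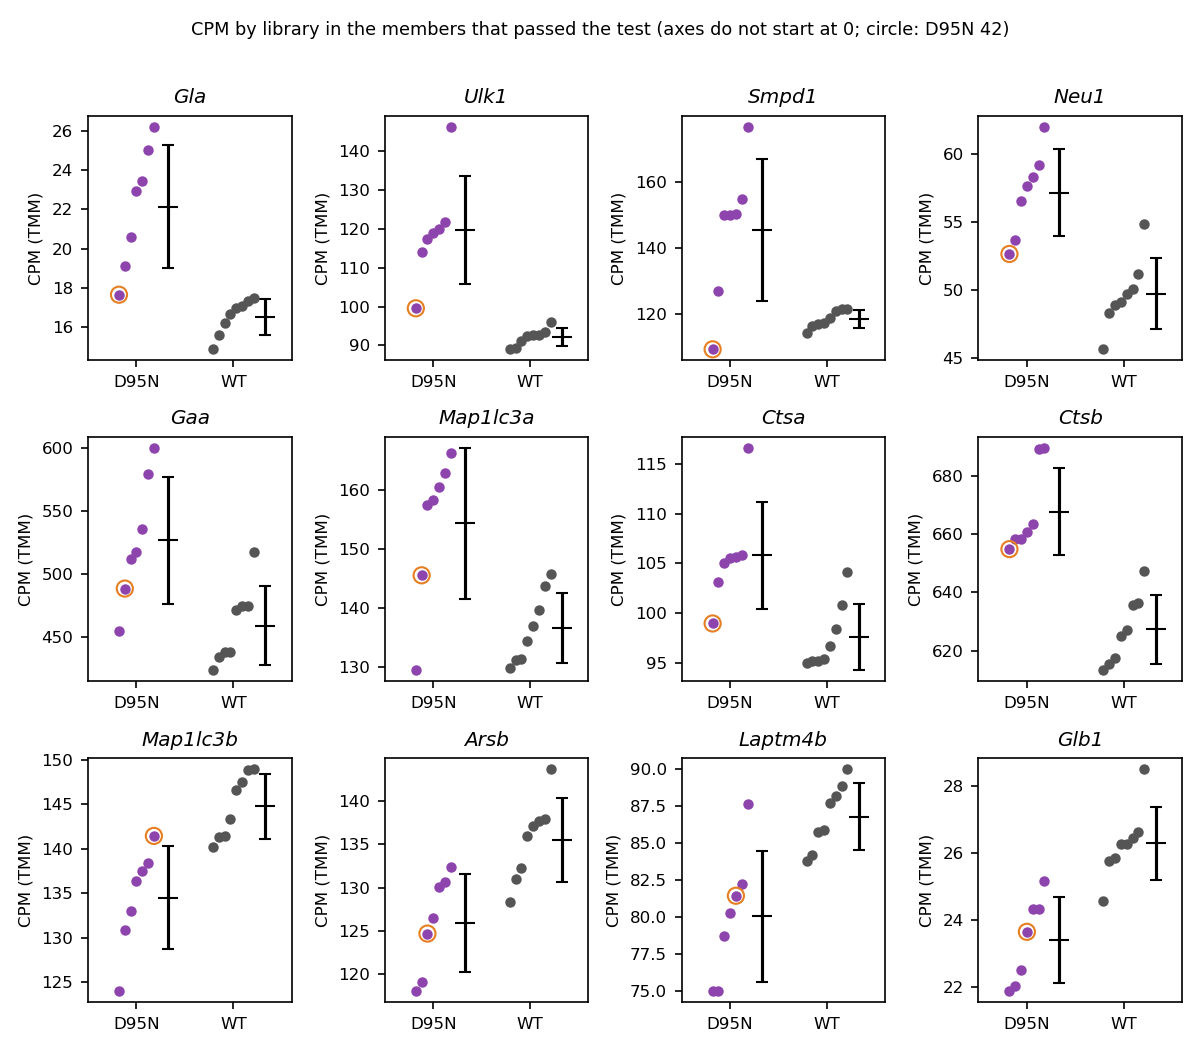
CPM (TMM-scaled) of the 12 members that passed, 1 point per library in order of value within D95N (left, n = 7) and WT (right, n = 8), with mean and SD as bars; the vertical axes do not start at 0. The circled library, D95N 42, is the lowest D95N library in 6 of the 8 members that rose and below every WT library in Smpd1.

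Lipid hydrolases, counted with the activator Psap, gave 1 rise in 4. Smpd1 (ENSMUSG00000037049, chromosome 7, 105554360 to 105558389), the acid sphingomyelinase that turns sphingomyelin into ceramide, stood at 109 to 177 CPM (median 150.1) in D95N, against 114 to 122 CPM (median 118) in WT. Of the 7 D95N libraries 6 lay above every WT library, while D95N 42, at 109 CPM, lay below all 8. The rise was 1.23-fold, at a log2 fold change of 0.30 with an SE of 0.07 (adjusted p = 0.00588 by edgeR), and 0.35 on the log2 scale without D95N 42. With blood and meningeal scores the log2 fold change was 0.19 (edgeR, adjusted p = 0.495). The spread within D95N was wide, with an SD of 21.4 CPM next to 2.66 CPM in WT. Lipa, the acid lipase that frees cholesterol from its esters, was highest in D95N 4 (40.4 CPM) and lowest among D95N in D95N 28 (25.3 CPM). Its log2 fold change of 0.19 (edgeR, adjusted p = 0.0662) passed without D95N 28, at 0.24 (edgeR, adjusted p = 0.0175), without WT 32, at 0.22 (edgeR, adjusted p = 0.0414), and with the GC and length correction, at 0.25 (edgeR, adjusted p = 0.0153). Psap encodes prosaposin, which is cut into the saposins that present lipids to these enzymes. It was the most abundant member per exonic length, at 652 CPM per kilobase. Psap stood at 1645 to 2015 CPM (median 1796) in D95N, against 1707 to 1795 CPM (median 1725) in WT, and its log2 fold change of 0.09 (edgeR, adjusted p = 0.0978) passed without D95N 42, at 0.12 (edgeR, adjusted p = 0.0156). Asah1, acid ceramidase, stood at -0.00 (edgeR, adjusted p = 0.991).

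In the cathepsins, the proteases of the lysosome, 2 of 8 rose and none fell (edgeR; of 3 at an unadjusted p under 0.05 all were higher, and DESeq2 called 3 and limma-voom 2). Apart from Ctsa the one that passed was Ctsb (ENSMUSG00000021939, chromosome 14, 63122462 to 63145923), a cysteine protease. Its levels were 655 to 689 CPM (median 661) in D95N, against 613 to 647 CPM (median 626) in WT, so that all 7 D95N libraries lay above all 8 WT libraries although the rise was only 1.06-fold. The test gave a log2 fold change of 0.09 with an SE of 0.02 (adjusted p = 0.0136 by edgeR). Scaled by upper-quartile factors or by library totals Ctsb did not pass, with log2 fold changes of 0.07 and 0.06 (edgeR, adjusted p = 0.0567 and 0.0981), and with 1 surrogate variable it stood at 0.08 (edgeR, adjusted p = 0.0534). Ctsd, the main aspartic protease of lysosomes, was at 474 to 571 CPM (median 488) in D95N, against 429 to 549 CPM (median 461) in WT. Its log2 fold change of 0.14 (edgeR, adjusted p = 0.0685) passed without WT 32, the highest WT library, at 0.18 (edgeR, adjusted p = 0.0157), and without D95N 42, at 0.16 (edgeR, adjusted p = 0.0414). The cysteine proteases Ctsl and Ctsf, and Ctsz, a carboxypeptidase, stood at 0.00 (edgeR, adjusted p = 0.98), -0.03 (edgeR, adjusted p = 0.687) and 0.01 (edgeR, adjusted p = 0.857). Tpp1, a tripeptidyl peptidase, and Ppt1, a palmitoyl thioesterase, both mutated in childhood neuronal ceroid lipofuscinosis, did not pass by edgeR, DESeq2 or limma-voom, nor at an unadjusted p under 0.05, with log2 fold changes of -0.07 (edgeR, adjusted p = 0.195) and -0.04 (edgeR, adjusted p = 0.318). Levels of Ppt1 were 103 to 119 CPM (median 112) in D95N, against 113 to 120.0 CPM (median 115) in WT.

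Ctss and Ctsh are cathepsins that the brain expresses largely in microglia. Ctss stood at 73.6 to 103 CPM (median 87.5) in D95N, against 82.4 to 124 CPM (median 94.3) in WT, with WT 32 highest and D95N 21 lowest, and Ctsh at 9.63 to 14.3 CPM (median 11.6) in D95N, against 10.2 to 15.5 CPM (median 12.6) in WT, again with WT 32 highest and D95N 21 lowest. The genotypes overlapped in both genes. Neither passed, with log2 fold changes of -0.13 (edgeR, adjusted p = 0.255) and -0.11 (edgeR, adjusted p = 0.413). The same libraries were the ends of the range of 15 microglial markers, whose summed level was 505 CPM in D95N 21 and 770.4 CPM in WT 32. Over all libraries that sum was 505 to 697 CPM in D95N and 586 to 770.4 CPM in WT. Of the 15 markers 1, Aif1, rose and none fell (edgeR; 2 lower at an unadjusted p under 0.05, 0 by DESeq2 and 0 by limma-voom). With the microglial score in the fit all 12 called members passed in the same direction, and Ctsd and Man2b1 passed as well. Grn, progranulin, a secreted protein that lysosomes take up and that microglia and neurons make, was at 67.0 to 80.1 CPM (median 73.7) in D95N, against 62.6 to 77.0 CPM (median 69.3) in WT and did not pass, with a log2 fold change of 0.09 (edgeR, adjusted p = 0.165).

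**Figure D4:**
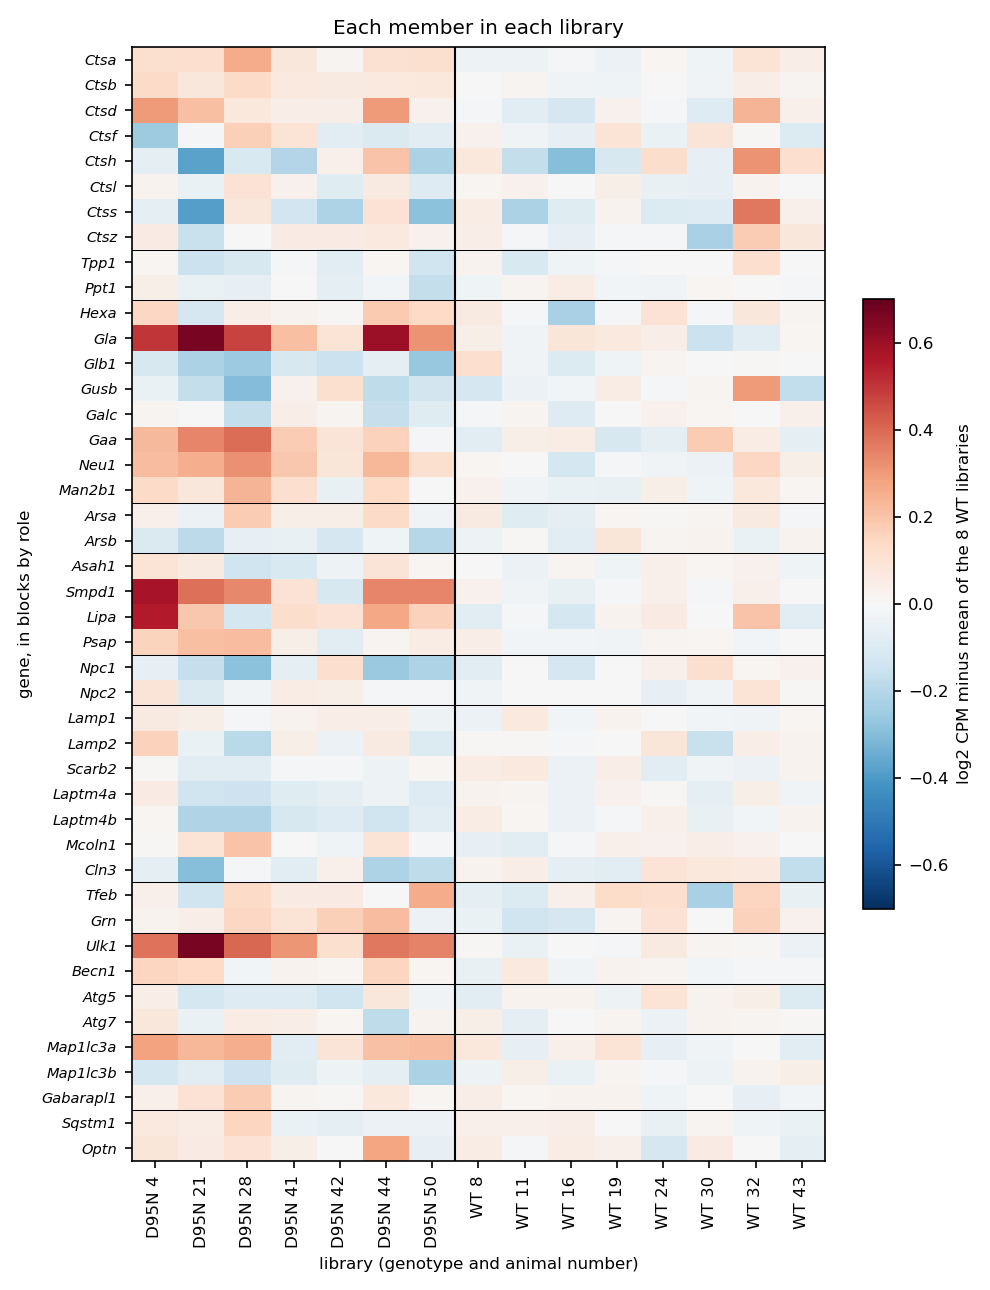
Log2 CPM of each member in each library minus the mean of the 8 WT libraries (colour, clipped at 0.7), with D95N libraries left and WT libraries right of the black line, and genes in blocks by role. Gla, Smpd1 and Ulk1 are red in most D95N libraries and light or blue in D95N 42, while Ctss and Ctsh are lowest in D95N 21 and highest in WT 32.

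Of the 7 membrane proteins 1 fell and none rose (edgeR; 2 at an unadjusted p under 0.05, both lower, and 1 each by DESeq2 and limma-voom). Laptm4b (ENSMUSG00000022257, chromosome 15, 34238028 to 34284302), a lysosomal protein with several membrane spans, was at 75.0 to 87.6 CPM (median 80.3) in D95N, against 83.8 to 89.97 CPM (median 86.8) in WT. It fell to 0.923-fold, at a log2 fold change of -0.12 with an SE of 0.03 (adjusted p = 0.0196 by edgeR), and 6 of 7 D95N libraries lay below every WT library. D95N 4 stood among the WT values. Without D95N 21 the call was lost, at -0.10 (edgeR, adjusted p = 0.0523), as it was with blood and meningeal scores, at -0.06 (edgeR, adjusted p = 0.636). Its paralog Laptm4a was at 178 to 205 CPM (median 186) in D95N, against 189 to 203 CPM (median 199) in WT, with 5 of 7 D95N libraries below every WT library and D95N 4 above them all. The log2 fold change of Laptm4a, -0.07 (edgeR, adjusted p = 0.11), passed without D95N 4, at -0.09 (edgeR, adjusted p = 0.0284), and when scaled by library totals, at -0.11 (edgeR, adjusted p = 0.0225). Lamp1 and Lamp2, the glycoproteins that line the membrane, had log2 fold changes of 0.03 (edgeR, adjusted p = 0.485) and -0.01 (edgeR, adjusted p = 0.869). Lamp1, whose promoter holds 4 cores, averaged 355 ± 8.51 CPM in D95N (SD, n = 7) and 349 ± 8.42 CPM in WT (SD, n = 8). Scarb2, the receptor that carries glucocerebrosidase to lysosomes, stood at -0.03 (edgeR, adjusted p = 0.524), Mcoln1, a cation channel that releases calcium, at 0.05 (edgeR, adjusted p = 0.316), and Cln3, a membrane protein mutated in juvenile neuronal ceroid lipofuscinosis, at -0.11 (edgeR, adjusted p = 0.165). Npc2 and Npc1 pass cholesterol out of the lysosome, Npc2 in the lumen and Npc1 in the membrane. With TMM factors neither passed by edgeR, nor did either by DESeq2 or limma-voom, Npc1 alone reaching an unadjusted p under 0.05. Npc1 was at 75.4 to 99.97 CPM (median 82.5) in D95N, against 85.0 to 99.4 CPM (median 92.6) in WT, and its log2 fold change was -0.13 (edgeR, adjusted p = 0.0821). D95N 42 was its highest library, and without it Npc1 fell, at -0.17 (edgeR, adjusted p = 0.00588). Npc1 also passed as lower with upper-quartile factors, at -0.15 (edgeR, adjusted p = 0.0485), and with library totals, at -0.16 (edgeR, adjusted p = 0.0431). Npc2 stood at 0.01 (edgeR, adjusted p = 0.893).

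Ulk1 (ENSMUSG00000029512, chromosome 5, 110784488 to 110810097), the kinase that starts autophagosome formation, had the smallest p of the members. It stood at 99.5 to 146 CPM (median 119) in D95N, against 89.0 to 96.1 CPM (median 92.5) in WT, and the groups did not overlap. The rise was 1.30-fold, at a log2 fold change of 0.38 with an SE of 0.06 (adjusted p = 0.000352 by edgeR), and leaving out 1 library gave log2 fold changes of 0.33 to 0.42. With blood and meningeal scores it was 0.24 (edgeR, adjusted p = 0.212). D95N 21 was its highest library, at 146 CPM, as it was for Gla. Becn1, the Beclin 1 subunit of the lipid kinase complex, had a log2 fold change of 0.07 (edgeR, adjusted p = 0.129) and passed with the GC and length correction, at 0.11 (edgeR, adjusted p = 0.0143). Atg5 and Atg7 did not pass by edgeR, DESeq2 or limma-voom, nor at an unadjusted p under 0.05, with log2 fold changes of -0.05 (edgeR, adjusted p = 0.433) and 0.00 (edgeR, adjusted p = 0.991). Levels of Atg5 were 24.6 to 28.6 CPM (median 25.5) in D95N, against 25.4 to 29.0 CPM (median 27.6) in WT.

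The ATG8 family split. Map1lc3a (ENSMUSG00000027602, chromosome 2, 155276297 to 155278073), which encodes LC3A, stood at 129 to 166 CPM (median 158) in D95N, against 130.0 to 146 CPM (median 136) in WT and rose 1.13-fold, at a log2 fold change of 0.18 with an SE of 0.05 (adjusted p = 0.012 by edgeR). Of the 7 D95N libraries 5 lay above every WT library and D95N 41 lay below them all. With the GC and length correction its log2 fold change was 0.02 (edgeR, adjusted p = 0.777), and the call was lost. Map1lc3b (ENSMUSG00000031812, chromosome 8, 121590361 to 121598760), which encodes LC3B, stood at 124 to 141 CPM (median 136) in D95N, against 140.2 to 149 CPM (median 145) in WT and fell to 0.929-fold, at a log2 fold change of -0.11 with an SE of 0.03 (adjusted p = 0.0174 by edgeR). Of the 7 D95N libraries 6 lay below every WT library, and the fall held with that correction, at -0.12 (edgeR, adjusted p = 0.0076). Neither LC3 gene passed with 1 surrogate variable in the fit, at 0.12 (edgeR, adjusted p = 0.0905) for Map1lc3a and -0.09 (edgeR, adjusted p = 0.0879) for Map1lc3b. Their mean levels over the 15 libraries were close, at 145 CPM for Map1lc3a and 140 CPM for Map1lc3b. Per kilobase of exonic length they were 123 and 18.6 CPM, because all annotated exons together span 1181 and 7517 bases. Gabarapl1, of the GABARAP branch, was higher than both on that scale, at 317, and its log2 fold change was 0.06 (edgeR, adjusted p = 0.143). The cargo receptors Sqstm1 (p62) and Optn (optineurin) did not pass by edgeR, DESeq2 or limma-voom, nor at an unadjusted p under 0.05. Sqstm1 stood at 439 to 512 CPM (median 448) in D95N, against 444 to 475 CPM (median 463) in WT, and the log2 fold change was 0.01 (edgeR, adjusted p = 0.82). Optn was at 0.08 (edgeR, adjusted p = 0.243). Tfeb was the least abundant member per exonic length, at 1.55 CPM per kilobase, and stood at 7.78 to 10.3 CPM (median 8.91) in D95N, against 7.32 to 9.53 CPM (median 8.52) in WT, with a log2 fold change of 0.06 (edgeR, adjusted p = 0.582).

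**Figure D5:**
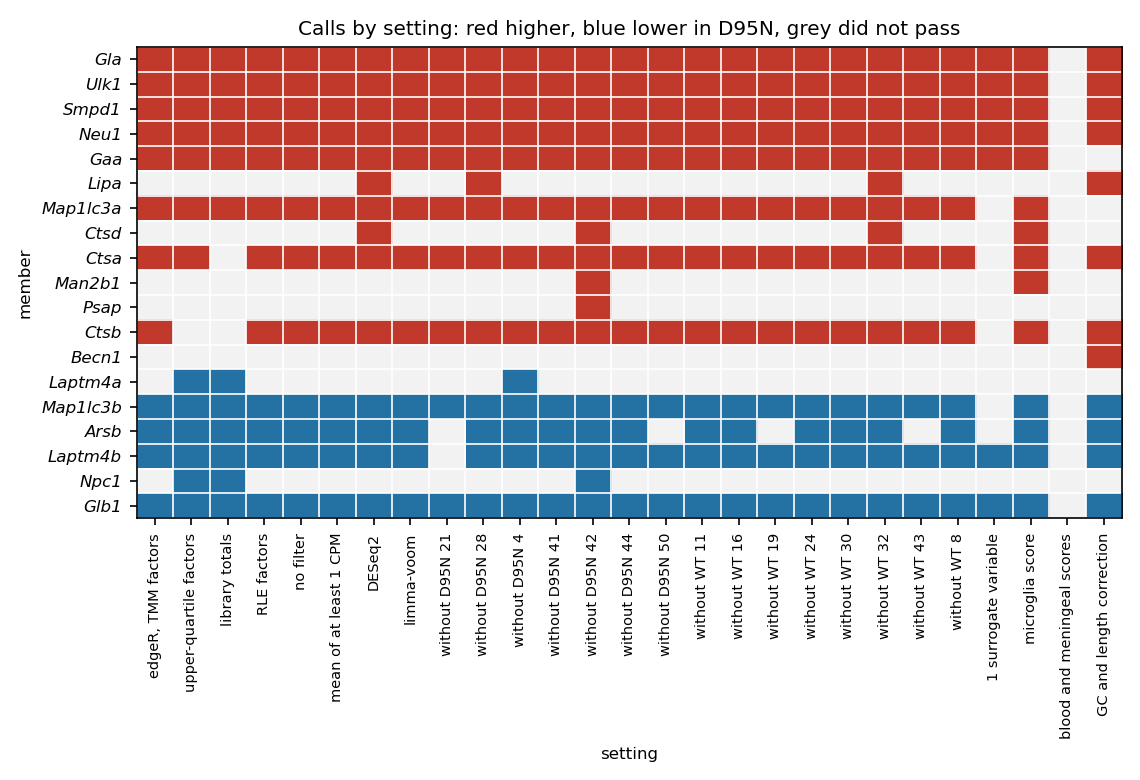
Calls of the 19 members that passed under at least 1 setting (rows), by setting (columns), with red for higher in D95N, blue for lower and pale grey for no call. Gla, Ulk1, Smpd1, Neu1 and Glb1 passed in every column but that with blood and meningeal scores, where none passed.

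Other genes of the same pathways, listed here apart from the members, showed near the background share too. Of 116 such genes 114 were tested, and 17 were higher and 13 lower, together 26.3% next to the 26.8% of all tested genes. A list of 35 genes of other hydrolases, which also holds some proteins that are not hydrolases, had 5 that rose and 5 that fell. Plbd2, a phospholipase B-like protein of the lysosome lumen, stood at 85.9 to 116 CPM (median 106) in D95N, against 74.4 to 84.2 CPM (median 81.0) in WT, with no overlap and a log2 fold change of 0.39 with an SE of 0.05 (adjusted p = 0.000257 by edgeR). Epdr1 also rose, with no overlap and a log2 fold change of 0.27 with an SE of 0.04 (adjusted p = 0.000657 by edgeR), while Naaa, which hydrolyses acylethanolamides, and Arsk, a sulfatase, fell to 0.815-fold and 0.789-fold with log2 fold changes of -0.30 (edgeR, adjusted p = 0.00319) and -0.34 (edgeR, adjusted p = 0.00497).

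Of 32 tested genes of lysosomal membranes and sorting 4 rose and 4 fell. Mfsd12, a transporter needed for cysteine import into lysosomes, stood at 50.1 to 71.4 CPM (median 64.1) in D95N, against 39.7 to 43.7 CPM (median 42.7) in WT, with no overlap and a log2 fold change of 0.55 with an SE of 0.06 (adjusted p = 0.000117 by edgeR), a larger rise than that of any member. Gnptab, a subunit of the enzyme that makes the mannose 6-phosphate signal, rose 1.15-fold at 0.21 (edgeR, adjusted p = 0.00622). Sort1, sortilin, a sorting receptor that also binds progranulin, fell to 0.863-fold at -0.21 (edgeR, adjusted p = 0.00313), with 6 of 7 D95N libraries below every WT library. Lamp5, a neuronal LAMP protein, fell to 0.704-fold at -0.51 (edgeR, adjusted p = 0.00411). Of 47 other autophagy genes 8 rose and 4 fell. Tfe3, the relative of Tfeb, stood at 39.3 to 54.1 CPM (median 51.2) in D95N, against 36.9 to 41.1 CPM (median 38.1) in WT, with 6 of 7 D95N libraries above every WT library and a log2 fold change of 0.32 with an SE of 0.06 (adjusted p = 0.00185 by edgeR). Atg2b, a lipid transfer protein of the growing autophagosome, rose with no overlap at 0.17 (edgeR, adjusted p = 0.00301). The receptors Nbr1 and Bnip3l fell to 0.906-fold and 0.837-fold, at -0.14 (edgeR, adjusted p = 0.00308) and -0.26 (edgeR, adjusted p = 0.00119), and Nbr1 did not overlap between the groups.

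The D95N libraries varied more among themselves than the WT libraries did, in the members as in the rest of the table. The median SD of log2 CPM over the members was 0.09 in D95N and 0.05 in WT, next to 0.16 and 0.09 over all genes, and 88.6% of members had the larger SD in D95N, next to 83.1% of all genes. D95N 42 was the lowest D95N library in 6 of the 8 members that rose, namely Ctsa, Ctsb, Gla, Neu1, Smpd1 and Ulk1, and it lay inside the WT range in 5 of the 12 called members. The same counts over all called genes were not made. D95N 42 also lay nearer to WT over all genes, at a median of 10.4 from the WT libraries and 33.9 from the other D95N libraries. Its summed blood genes, 149 CPM, were the highest among D95N, and their part was not tested. The split between higher and lower calls moved with scaling. With library totals 6 members were higher and 6 lower, and with upper-quartile factors 7 and 6, while over all genes library totals gave 1808 higher and 2536 lower, against 2272 and 1744 with TMM factors.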

How the data were processed

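Transcripts were counted in 15 cortex libraries, 7 D95N and 8 WT. Each deposited file holds 1 library's unnormalized counts by Ensembl identifier. STAR, featureCounts and GRCm38 are named in the submitters' processing notes as what the authors used. Neither their versions nor the annotation, strand setting or handling of multi-mapping reads is given in the sources used here. Of 22524 identifiers 22214 matched GENCODE M21, which gave symbols, coordinates, exonic length and GC content. Exonic length is that of all annotated exons of a gene together, which can exceed the length of the transcript expressed.

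The counts were tested here with edgeR 4.0.16 in R 4.3.3 by the quasi-likelihood test, with TMM factors, filterByExpr, genotype as the only term and Benjamini-Hochberg adjustment at 0.05 over 14989 genes. The SE is the log2 fold change over the square root of F. CPM were computed here. The procedure was checked on simulated counts. Alternatives used DESeq2 1.42.0, limma 3.58.1, sva 3.50.0, other scalings and filters, marker scores, a correction for GC content and length (61 tested genes without a value left out), and each library left out in turn. Figures used Python 3.11.15.

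The members and the lists were chosen with earlier results of these data known. Up to 3 called members per role by smallest p get full values (with Gaa added as the last of 4 called glycosidases), as does the most abundant member of a role with none, and up to 4 called genes of each other list are named. P-values weigh the difference between genotypes against the spread between these animals, which the fit takes as independent.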

Additional observations from a re-analysis of the deposited data

Results flagged for a closer look

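In 9 of 88 groups of values (44 members in each genotype) the highest or lowest library was set well apart from the others, where chance gives about 1 in 20. The members share libraries and some move together, so that these groups are not independent. WT 32 was the high library in 4 of them: Ctsd at 549 CPM, next to 476 CPM in the library closest to it, Ctss at 124 CPM, Gusb at 19.9 CPM and Npc2 at 72.2 CPM. The same library had the highest summed levels of microglial (770.4 CPM), endothelial (494 CPM) and blood genes (313 CPM), and their part in these values was not tested. Without WT 32 Ctsd passed, and so did Lipa. WT 16 was low in Hexa, at 42.5 CPM, and in Galc, at 31.0 CPM, and WT 30 was low in Lamp2, at 101 CPM. Among the D95N libraries D95N 28 was high in Ctsa, at 117 CPM next to 106 CPM, and Ctsa passed without it. D95N 21 was low in Ctsz, at 41.4 CPM.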

How the results depend on the processing

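All 12 called members passed in the same direction with RLE factors, no filter, a minimum mean of 1 CPM, DESeq2, limma-voom and the microglial score, 11 with upper-quartile factors, 10 with the GC and length correction and 10 with library totals. With library totals 20 other pathway genes were lower in place of 13. With 1 surrogate variable 5 members were higher and 2 lower, with 1334 and 864 of all genes and 9 other pathway genes higher. With blood and meningeal scores 0 members were higher and 0 lower (edgeR; 10 at an unadjusted p under 0.05), 4 and 6 of all genes passed, and 0 and 0 other pathway genes. The cause was not tested for either fit. Leaving out 1 library gave 8 to 11 members higher and 2 to 5 lower, with 2 lower without D95N 21, where Arsb and Laptm4b did not pass. Over all genes those fits gave 1952 to 2694 higher and 1305 to 2282 lower, with 1305 lower without D95N 21. No called member changed sign under any of these alternatives. No analysis paired by litter was possible because no label gives the litter, and litter is not a term in the fit. Ctsa and Ctsb, the smallest of the called rises, were the members that lost their calls with library totals. With those totals the median log2 fold change over all genes was -0.04, against -0.01 with TMM factors.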

Other observations

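Some members share exonic bases with a neighbouring gene. Cap1, which overlaps Ppt1, averaged 319 ± 44.8 CPM in D95N (SD, n = 7) and 249 ± 10.7 CPM in WT (SD, n = 8) and rose, at a log2 fold change of 0.36 (edgeR, adjusted p = 0.00197), while Ppt1 did not pass. Pltp, which overlaps Ctsa, averaged 58.1 ± 12.5 CPM in D95N (SD, n = 7) and 77.6 ± 5.88 CPM in WT (SD, n = 8) and fell, at a log2 fold change of -0.42 (edgeR, adjusted p = 0.00839), where Ctsa rose. Tmppe, which overlaps Glb1 on the same strand, had a log2 fold change of -0.09 (edgeR, adjusted p = 0.183), and Fdft1, which overlaps Ctsb, one of 0.16 (edgeR, adjusted p = 0.0593).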
